A study of Mus musculus with 14 samples.

Results

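The liver mRNAs of the insulin receptor and of the proteins that carry its signal were examined in TALLYHO mice given indole or water. The group held 9 genes of the 55487 in the table of read counts, taken by gene symbol alone: the receptor Insr, the receptor substrates Irs1 and Irs2, the phosphoinositide 3-kinase (PI3K) subunits Pik3r1, Pik3ca and Pik3cb, the kinases Akt1 and Akt2, and the receptor inhibitor Grb14. Whole liver was profiled by strand-specific poly(A) RNA sequencing in 14 mice, 7 given water (vehicle) and 7 given indole, a product of bacterial tryptophan breakdown, at 20 mg/kg by oral gavage, with 2 gavages daily on 7 consecutive days. All were adult male TALLYHO/JnG mice, a polygenic strain in which males become hyperglycaemic and insulin resistant. The vehicle mice were thus themselves of a diabetic strain, and no lean control was included. The paper describes fast but uneven progression of diabetes in this strain, with fasting glucose differing considerably between mice. The study then ran a pair of metabolic tests, gave 2 further doses on the day between them, and froze the right liver lobe on the day after the second test. The insulin and glucose state of each mouse at that moment is not in the labels.

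Insulin binding to its receptor switches on the receptor's tyrosine kinase, which phosphorylates the substrates IRS1 and IRS2. These recruit PI3K, whose lipid product brings AKT to the membrane, where it is activated, and in hepatocytes active AKT shuts the FoxO transcription factors out of the nucleus, lowering glucose production, and favours glycogen and fat synthesis. Most of this relay runs through phosphorylation, which mRNA counts do not measure. Irs2 is the member best known for transcriptional control in liver: FoxO factors raise it in fasting and insulin represses it.

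The libraries held 15197498 to 21060376 reads assigned to genes, and each member had at least 158 reads in every mouse. Levels are given in CPM, reads of a gene scaled to a common library size with factors from the trimmed mean of M values (TMM). Hepatocyte markers took 84668 to 106303 CPM in vehicle and 75646 to 112697 CPM in indole mice, and the pancreatic hormone genes Ins1 and Ins2 had 0 reads in all libraries. Summed erythroid markers were higher with indole, with a range of 204.1 to 384.1 CPM and a median of 290.5 CPM in vehicle against 263.2 to 1094 CPM and a median of 496.5 CPM in indole mice (two-sided exact permutation test p = 0.0449). The highest sums were those of G5 and G14, at 1094 and 1047 CPM, while the indole mice G3, G7 and G8 lay within the vehicle range. All 5 tested globin and haem genes of that list had an unadjusted p below 0.05 in edgeR, where 3.81% of all genes tested did. Bile duct markers were nominally lower with indole in 6 of 6 tested genes, with a median log2 fold change of −0.27. Their summed level was 41.7 to 61.3 CPM in vehicle and 38.9 to 55.8 CPM in indole mice (exact p = 0.0897). B and plasma cell markers were low, at 3.80 to 5.98 CPM in vehicle and 4.36 to 9.63 CPM in indole mice (exact p = 0.00816), and the adipocyte list, higher with indole (exact p = 0.0297), was nearly all Car3, with Lep and Retn at 0 reads. Endothelial markers were nominally higher in 10 of 10 tested genes (median log2 fold change 0.19; summed level 93.9 to 168.1 CPM in vehicle and 118.3 to 216.2 CPM in indole mice, exact p = 0.137) and Kupffer and macrophage markers in 13 of 14 (median 0.20; 127.5 to 307.1 and 154.6 to 562.2 CPM, exact p = 0.650). The part of these cell types in the results that follow was not tested. The indole mouse G8 and the vehicle mouse G11 stood apart in interferon-response genes, with summed levels of 2310 and 766.2 CPM against a median of 499.8 CPM in vehicle and 425.2 CPM in indole mice. Both were also the highest of their groups in Kupffer and macrophage markers, at 562.2 and 307.1 CPM, and G11 was the lowest in endothelial markers, at 93.9 CPM. Leaving out G8 and G11 therefore also removes these extremes. As this was bulk tissue, fewer cells of a type and less RNA per cell cannot be told apart.

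None of the 9 members differed between indole and vehicle mice by the study's own criterion, an unadjusted p below 0.05. In edgeR's quasi-likelihood test 482 of 12653 genes (3.81%) met that criterion and 0 genes (0%) had a Benjamini–Hochberg adjusted p below 0.05. DESeq2 and limma also gave 0 genes with an adjusted p below 0.05. An unadjusted p below 0.05 was found for 719 of 22535 genes in DESeq2, run without the filter on low counts, and for 551 of 12653 in limma. All 9 members passed the filter on low counts. Of them 3 were nominally higher and 6 nominally lower with indole, with a median log2 fold change of −0.04, against 6489 genes higher, 6164 lower and a median of 0.00 over all genes tested. Each member's adjusted p was 0.998. The 95% intervals differed in width, from 0.900- to 1.09-fold for Akt2 to 0.722- to 1.40-fold for Irs2.

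**Figure D1:**
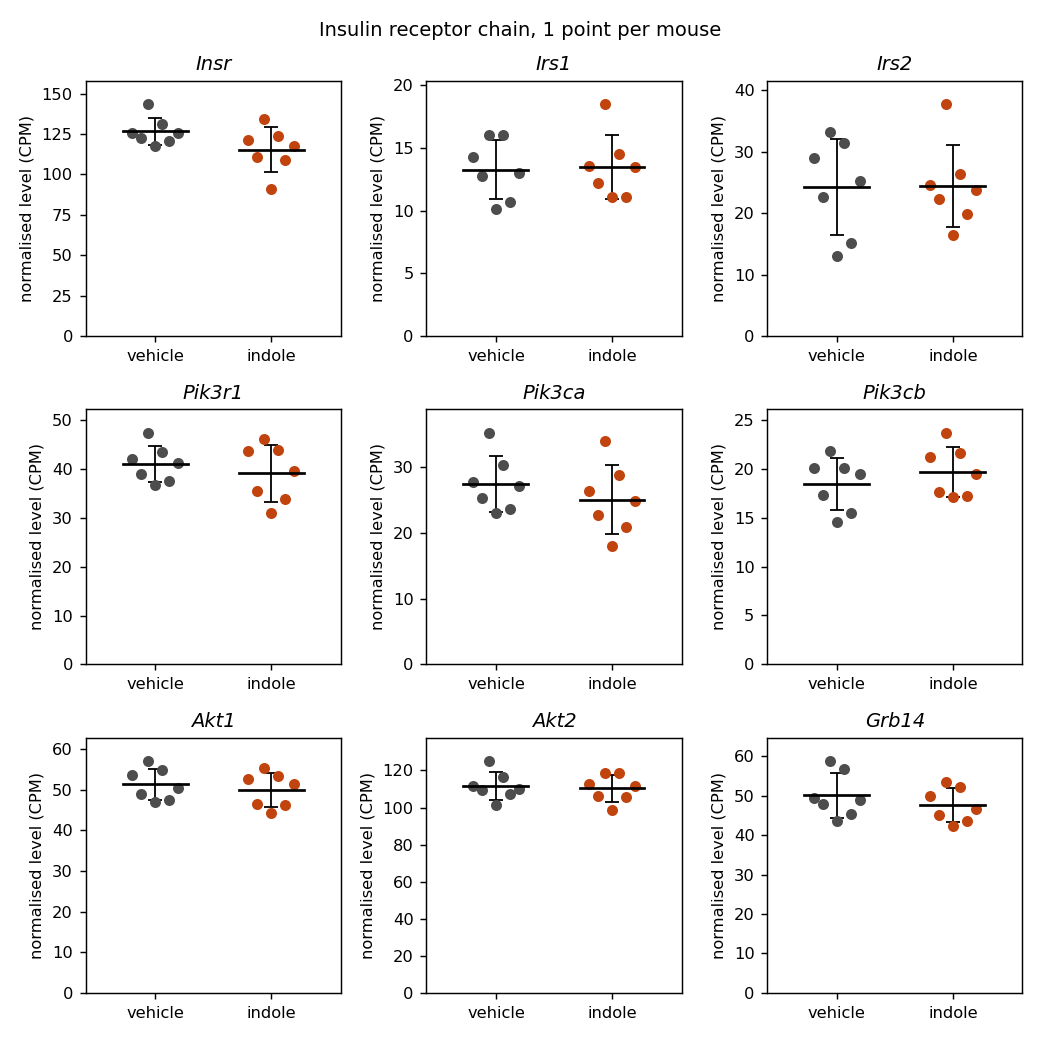
Normalised level in CPM (vertical axes, from 0) of the 9 members in vehicle (grey) and indole (orange) mice, 1 point per mouse and 7 mice a group, with lines at the mean and bars for the SD. The groups overlap for each gene, and Insr shows the clearest downward offset, with 4 indole mice below all 7 vehicle mice.

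Insr (ENSMUSG00000005534, chr8:3122061-3279617, minus strand, GRCm38) encodes the receptor itself. Its level ran from 117.8 CPM through a median of 125.3 to 143.4 CPM in vehicle mice. In indole mice it ran from 90.8 CPM in G5 through a median of 117.5 to 134.5 CPM in G12. The groups overlapped, yet 4 indole mice lay below every vehicle mouse and 6 of 7 lay below the vehicle median. Means were 126.6 ± 8.52 and 115.2 ± 13.8 CPM (SD, n = 7 each), a log2 fold change of −0.14 ± 0.0783 (SE), with a 95% interval of 0.813- to 1.02-fold. This was the largest change relative to its error in the chain, and it did not pass (edgeR unadjusted p = 0.0986, adjusted p = 0.998; two-sided exact permutation test p = 0.0793). Leaving out G12 alone brought the unadjusted p in edgeR to 0.0381, still with no adjusted call. Leaving out G5, the mouse lowest in Insr, brought it to 0.229, and leaving out G4, the highest, to 0.212. The log2 fold change stayed between −0.17 and −0.09 under all 22 alternatives. With the erythroid sum as a covariate the unadjusted edgeR p for Insr was 0.373. The log2 fold change of Insr in that fit was −0.086 with an SE of 0.0944, and leaving out G5 alone also gave −0.086. G5 had the highest erythroid sum, 1094 CPM, and that sum was higher with indole. The covariate therefore cannot separate red cell RNA from G5 or from treatment. The part of red cell RNA in the difference was not tested further.

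Irs1 and Irs2 encode the docking proteins that the receptor phosphorylates. Irs1 (ENSMUSG00000055980, chr1:82233101-82291416, minus strand) was the scarcer, with a lowest, median and highest level of 10.1, 13.01 and 16.1 CPM in vehicle and 11.1, 13.5 and 18.5 CPM in indole mice. Irs2 (ENSMUSG00000038894, chr8:10984681-11008458, minus strand) had 13.1, 25.3 and 33.2 CPM in vehicle and 16.5, 23.8 and 37.7 CPM in indole mice. For both genes the groups overlapped almost fully. The log2 fold changes were 0.02 ± 0.128 (SE) for Irs1 and 0.01 ± 0.223 for Irs2 (exact permutation p = 0.877 and 0.861), and the sign of each reversed when single mice were left out. The interval for Irs2 was the widest of the chain, and it allows any change from 0.722- to 1.40-fold.

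What set Irs2 apart was its spread between mice of the same group. Its coefficient of variation was 32.3% in vehicle and 27.4% in indole mice, and its level differed 2.88-fold between the lowest and highest of the 14 mice. Its biological coefficient of variation in edgeR, the between-mouse spread left after counting noise, was 28.6% against a median of 16.6% over all genes tested, which placed it at percentile 82.5 among all of these and at 97.1 among the 3895 genes within 2-fold of its level. Akt2 and Akt1 were at the other extreme, with 11.2% and 11.4% and percentiles of 5.52 and 6.59 among all genes tested. Among genes within 2-fold of their own level, Akt2 and Akt1 were at percentiles 12.4 and 18.8, Insr near the middle at 43.8, Irs1 at 71.7 and Pik3ca at 85.5. Both AKT genes thus varied less between mice than most genes of like level, and Irs2 varied more.

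The promoter stretches of both substrates are shown because each holds the pair of short motifs through which Irs2 is known to be controlled, the forkhead type insulin response motif TGTTTTG and the E-box CACGTG. They are RefSeq sequence in build GRCm38.p6, read 5′ to 3′ on the minus strand, with the motifs in capitals. The Irs1 stretch is chr1:82291445-82291574 and the Irs2 stretch is chr8:11008940-11008993, and both end before the annotated transcript start.
Irs1: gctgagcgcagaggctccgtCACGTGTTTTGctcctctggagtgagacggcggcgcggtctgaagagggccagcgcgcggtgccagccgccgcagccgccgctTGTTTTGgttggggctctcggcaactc
Irs2: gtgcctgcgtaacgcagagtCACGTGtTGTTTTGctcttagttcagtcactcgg

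In Irs2 the E-box and the insulin response motif began 44 and 37 bases before the start, separated by a single base. These distances are from the RefSeq starts, which lie 471 bases upstream of the gene's start in the deposited table for Irs2 and 23 bases upstream for Irs1. In Irs1 the E-box ran into the first of 2 insulin response motifs and shared letters with it. These began 115 and 111 bases before the start, and the second insulin response motif began 32 bases before it. Over the 300-base windows of RefSeq, from 250 bases before to 50 after each start, and counting both strands, 6.28% of 32851 windows held TGTTTTG, 7.15% held CACGTG and 0.408% held both. Windows were listed for 8 of the 9 members, 13 windows in all, and no other member's window held either motif. The canonical forkhead motif TGTTTAC was in 3.65% of all windows and, among the members, in an Akt1 window only. The substrates thus held the same motifs before their starts in different arrangements. Whether the motifs bear on the spread of either gene was not tested, and these letter matches are a description and no measure of binding.

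**Figure D2:**
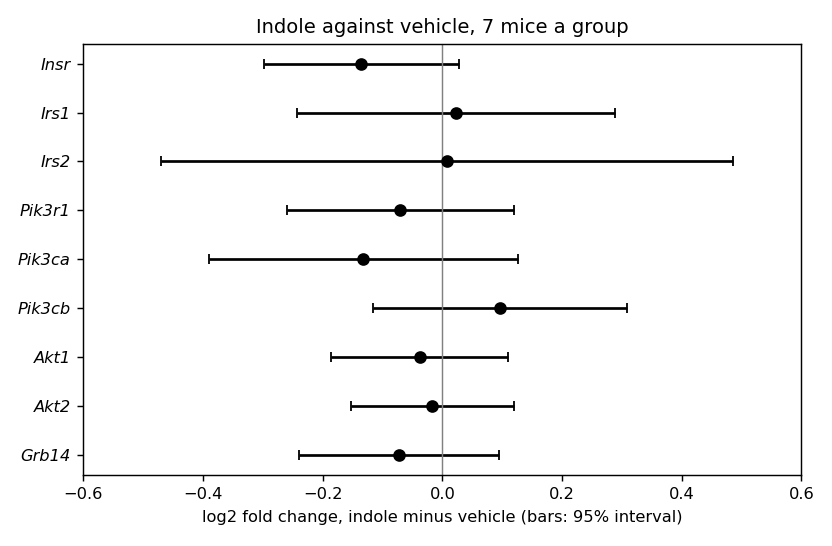
Log2 fold change of each member, indole minus vehicle (horizontal axis), from edgeR with 7 mice a group, with bars for the 95% interval. Every interval includes 0, and the interval for Irs2 is the widest.

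The PI3K genes encode the regulatory subunit p85 alpha (Pik3r1) and the catalytic subunits p110 alpha (Pik3ca), the main insulin-responsive form in liver, and p110 beta (Pik3cb). Pik3r1 (ENSMUSG00000041417, chr13:101680563-101768217, minus strand) had lowest, median and highest levels of 36.8, 41.3 and 47.4 CPM in vehicle and 30.9, 39.7 and 46.2 CPM in indole mice. Pik3ca (ENSMUSG00000027665, chr3:32397671-32468486, plus strand) had 22.9, 27.1 and 35.2 CPM in vehicle and 17.9, 24.8 and 33.9 CPM in indole mice. In both genes 3 indole mice, G5 and G8 among them, lay under every vehicle mouse, and the rest lay within the vehicle range. Pik3cb (ENSMUSG00000032462, chr9:99036654-99140621, minus strand) was nominally higher with indole, at 14.5, 19.4 and 21.8 CPM in vehicle and 17.1, 19.4 and 23.7 CPM in indole mice. The log2 fold changes were −0.07 ± 0.0912 (SE) for Pik3r1, −0.13 ± 0.124 for Pik3ca and 0.10 ± 0.102 for Pik3cb, with exact permutation p values of 0.416, 0.318 and 0.356. Single mice moved these estimates: Pik3ca went to −0.061 without G4 and −0.22 without G2, Pik3r1 to −0.022 without G5, and Pik3cb to 0.050 without G14.

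Because the differences of the catalytic subunits had opposite signs, their balance was computed within each mouse, a comparison added after these values were seen. The ratio of Pik3ca to Pik3cb per kilobase was 1.20 ± 0.249 in vehicle and 1.01 ± 0.190 in indole mice (SD, n = 7 each; log2 difference −0.25, two-sided exact permutation test p = 0.128). Vehicle mice ran from 0.832 to 1.55 and indole mice from 0.828 to 1.38, so the ranges coincided at the lower end. The ratio of Irs2 to Irs1 was 2.67 ± 0.834 and 2.78 ± 1.15 (exact p = 0.937). That of Akt2 to Akt1 was 1.25 ± 0.0815 and 1.27 ± 0.117 (exact p = 0.720). None of the 3 balances differed beyond the spread between mice.

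Akt1 and Akt2 encode the serine/threonine kinases at the end of the chain, of which AKT2 is the form most tied to glucose metabolism. Akt2 (ENSMUSG00000004056, chr7:27591552-27640826, plus strand) had lowest, median and highest levels of 101.4, 110.1 and 125.0 CPM in vehicle and 98.7, 111.5 and 118.7 CPM in indole mice. Akt1 (ENSMUSG00000001729, chr12:112653821-112674884, minus strand) had 46.9, 50.5 and 57.0 CPM in vehicle and 44.3, 51.4 and 55.3 CPM in indole mice. In each gene the medians were within a few per cent of each other and the groups overlapped. The log2 fold changes were −0.02 ± 0.0651 (SE; 95% interval 0.900- to 1.09-fold) for Akt2 and −0.04 ± 0.0708 (0.879- to 1.08-fold) for Akt1, with exact permutation p values of 0.749 and 0.530. These were the tightest bounds of the chain.

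Grb14 encodes an adaptor that binds the activated receptor and blocks its kinase. Grb14 (ENSMUSG00000026888, chr2:64912476-65024987, minus strand) had lowest, median and highest levels of 43.5, 48.8 and 58.8 CPM in vehicle and 42.3, 46.5 and 53.4 CPM in indole mice. The highest values, 56.7 and 58.8 CPM, belonged to the vehicle mice G9 and G10. The log2 fold change was −0.07 ± 0.0801 (SE; 95% interval 0.847- to 1.07-fold; exact permutation p = 0.378).

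The genes differed far more from each other than between groups once their levels were set per kilobase of gene length. Akt2 stood highest at 15.6 ± 0.998 CPM per kb (SD, n = 14), followed by Akt1 at 12.4 ± 0.963, Insr at 8.80 ± 0.909 and the inhibitor Grb14 at 6.79 ± 0.696. Pik3r1 at 3.98 ± 0.475, Irs2 at 3.85 ± 1.11, Pik3ca at 2.89 ± 0.526 and Pik3cb at 2.65 ± 0.360 formed a middle group, and Irs1 was lowest at 1.46 ± 0.259. Akt2 exceeded Akt1, Akt1 exceeded Insr, Grb14 exceeded Pik3r1 and Pik3cb exceeded Irs1 in 14 of 14 mice, and Insr exceeded Grb14 in 13. Within the middle group neighbours did not separate: Pik3r1 exceeded Irs2 in 7 of 14 mice, Irs2 exceeded Pik3ca in 10 and Pik3ca exceeded Pik3cb in 8. The transcript of the inhibitor was therefore more abundant per length than that of any substrate or PI3K subunit in mean level.

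**Figure D3:**
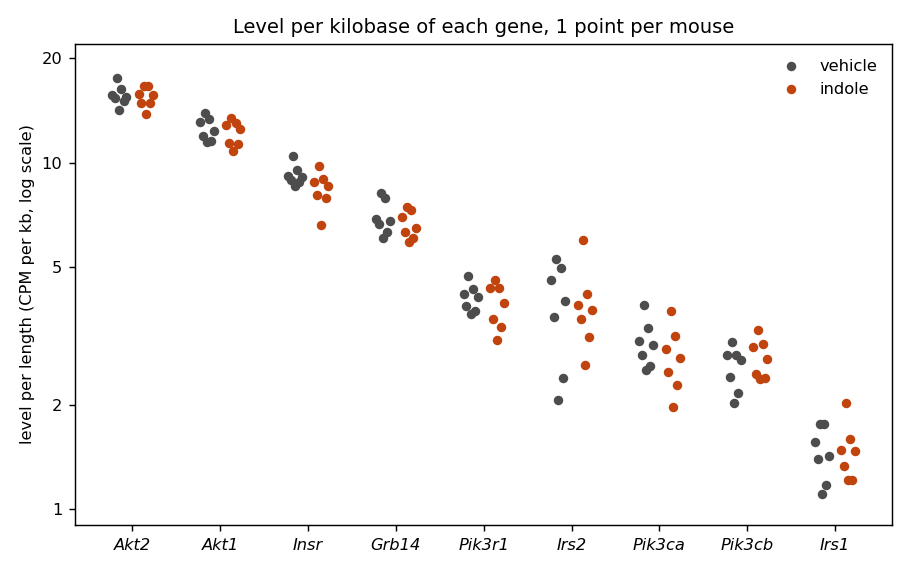
Level per kilobase of gene length (vertical axis, CPM per kb, log scale) of each member in vehicle (grey) and indole (orange) mice, 1 point per mouse, ordered by the mean over 14 mice. Akt2 is highest at a mean of 15.6 and Irs1 lowest at 1.46, and the points of Irs2 are the most spread.

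Whether members varied together from mouse to mouse was asked with Pearson correlations of log2 CPM over 14 mice after removal of the group means, with mice permuted within groups. Of 36 pairs 6 had an unadjusted permutation p below 0.05 and 0 had an adjusted p below 0.05. The strongest pair was Akt1 with Grb14, the last kinase and the receptor's inhibitor (r = −0.73, permutation p = 0.00591, adjusted 0.156; Spearman's rho = −0.84, permutation p = 0.00085, adjusted 0.0306). The correlation was −0.89 within vehicle and −0.59 within indole mice, −0.73 without the 2 mice farthest from the median of Akt1, and −0.86 without G8 and G11 (permutation p adjusted over the pairs 0.0421). The adjusted p of this pair therefore fell on either side of 0.05 depending on the measure and the mice. Grb14 had a negative r with 7 of the 8 other members, from −0.73 with Akt1 to −0.13 with Pik3ca, the exception being Pik3r1 at 0.03.

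**Figure D4:**
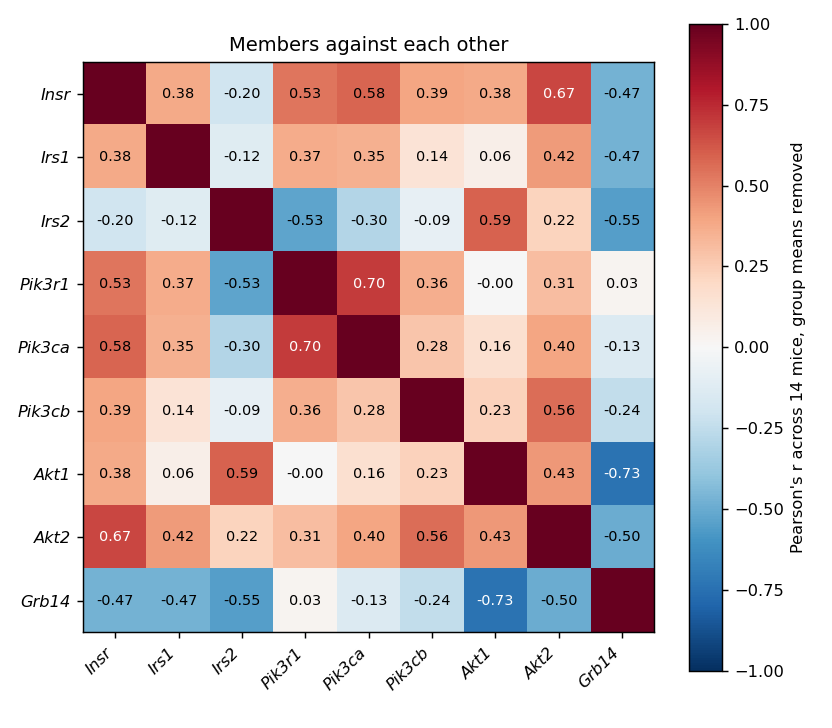
Pearson's r between the log2 CPM of each pair of members across 14 mice after removal of group means (colour scale from −1 to 1, values in the cells). The Grb14 row is negative for 7 of 8 partners, with the lowest value, −0.73, for Akt1.

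No other pair had an adjusted p below 0.05 under any of the alternatives run. Insr with Akt2 had r = 0.67 (rho = 0.67, permutation p = 0.0115 and 0.0172, adjusted 0.156 and 0.216), with 0.33 within vehicle and 0.89 within indole mice. It was 0.41 without the 2 mice farthest from the Insr median. Leaving out the most extreme mice narrows the range of a gene, so a lower r alone cannot show that a pair rested on them. Pik3r1 with Pik3ca had r = 0.70 (rho = 0.64, permutation p = 0.013 and 0.0298, adjusted 0.156 and 0.216), but r was 0.19 within vehicle and 0.91 within indole mice, and 0.44 without the 2 farthest mice. Irs2 with Akt1 had r = 0.59 (rho = 0.56, permutation p = 0.0329 and 0.0523, adjusted 0.267 and 0.216), with 0.59 within vehicle and 0.63 within indole mice, and 0.40 without the 2 farthest mice. Irs2 with Pik3r1 had r = −0.53 (rho = −0.53, permutation p = 0.0375 and 0.05003, adjusted 0.267 and 0.216), with −0.62 within vehicle and −0.55 within indole mice, and −0.36 without the 2 farthest mice. Pik3cb with Akt2 had r = 0.56 (rho = 0.56, permutation p = 0.0496 and 0.0472, adjusted 0.267 and 0.216), with 0.47 within vehicle and 0.66 within indole mice, and 0.59 without the 2 farthest mice. Irs1 and Irs2, the alternative substrates, showed r = −0.12 (rho = −0.13, permutation p = 0.698 and 0.686, adjusted 0.786 and 0.748).

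**Figure D5:**
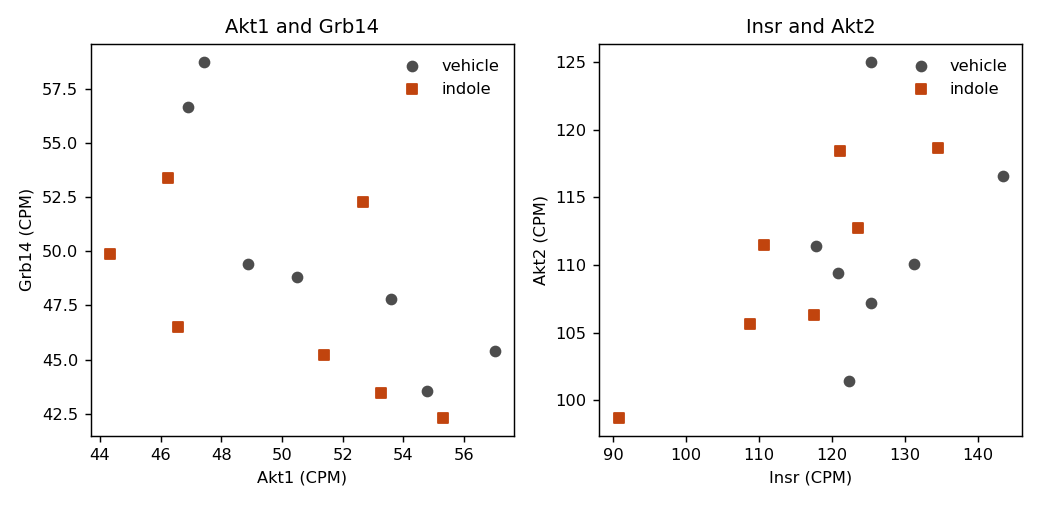
CPM of Grb14 against Akt1 (left) and of Akt2 against Insr (right), 1 point per mouse, vehicle in grey circles and indole in orange squares. Mice with low Akt1 tended to have high Grb14 (r = −0.73 with group means removed), and the mouse lowest in Insr, G5 at 90.8 CPM, was also lowest in Akt2.

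A contrast between long and short genes moved with Pik3ca and, less steadily, with Insr. Whether it reflects the libraries or the livers was not tested. A long-gene index, the mean log2 CPM of tested genes over 8 kb minus that of genes under 2 kb, was computed per mouse after the correlations were seen, with the members left out. Pik3ca followed it closely (r = 0.84, rho = 0.86, permutation p = 0.00034 and 0.00021, adjusted 0.00306 and 0.00189 over 9 members), and r was 0.79 without the 2 farthest mice. Insr, at 13746 bases the longest member, had r = 0.69 (rho = 0.52, permutation p = 0.0107 and 0.0674, adjusted 0.0482 and 0.287) and 0.47 without the 2 farthest mice, and its call was lost in all 7 alternatives. With the index removed, r between Insr and Pik3ca went from 0.58 to 0.02 and between Insr and Akt2 from 0.67 to 0.41, whereas Akt1 with Grb14 kept r = −0.69. For Grb14 with Pik3ca r went from −0.13 to 0.35 and with Pik3cb from −0.24 to −0.05, while the other negative pairs of Grb14 stayed negative. Irs2 did not follow the index (r = 0.01, rho = −0.08, permutation p = 0.971 and 0.806, adjusted 0.971 and 0.806). G5, the mouse lowest in Insr, also had the lowest index, 0.136 against 0.350 to 0.777 in vehicle mice, and the index itself differed between groups by −0.08 (exact permutation p = 0.418). Its part in the Insr difference was not tested.

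Irs2 was next set against genes that insulin and FoxO control in liver, to see whether its spread ran with theirs. Of 6 pairs 0 had a permutation p below 0.05 before or after adjustment. The largest was with G6pc, the last enzyme of glucose production (r = −0.51, rho = −0.50, permutation p = 0.0571 and 0.0713, adjusted 0.197 and 0.324), at −0.47 without the 2 farthest mice and −0.71 without G8 and G11 (permutation p adjusted over the pairs 0.0212). Srebf1, the lipogenic regulator, had r = 0.51 (rho = 0.46, permutation p = 0.0658 and 0.108, adjusted 0.197 and 0.324), which dropped to 0.19 without the 2 farthest mice. Pck1, the gluconeogenic enzyme that FoxO factors raise along with Irs2 in fasting, had r = 0.00 (rho = 0.19, permutation p = 0.993 and 0.515, adjusted 0.993 and 0.617). Igfbp1 and Ppargc1a had r of 0.36 and 0.05, each with an adjusted permutation p of 0.461 or more. By likeness alone, taken as the highest positive r with group means removed, the 5 tested genes nearest to Irs2 across the 14 mice were Arrdc3 (r = 0.86), Usp6nl (0.85), Zfp36l1 (0.84), Rab20 (0.83) and Depp1 (0.83), and those nearest to Insr were Zbtb7a (0.91), Alcam (0.90), Slx1b (0.90), Smarca2 (0.89) and Zfp738 (0.89). Without removal of group means the r values with Insr were 0.93, 0.91, 0.66, 0.75 and 0.78 in that order. Slx1b and Zfp738 were low, at 4.80 and 2.08 CPM. The named genes had the highest of 12653 values and are given with no test. The lowest r of any gene was −0.91 with Irs2 and −0.92 with Insr.

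The wider pathway was read in lists of its known parts, in which at most 1 gene a list passed the unadjusted criterion in edgeR with all mice. Of all genes tested 3.81% passed it, so in lists this short a count of 0 or 1 cannot set a list apart. Of 16 tested adaptors and kinases that join the relay 7 were nominally higher, 9 lower and 0 had an unadjusted p below 0.05 in edgeR, with a median log2 fold change of −0.05. Shc1, the adaptor towards the Ras pathway and the most abundant of them, had 52.9 ± 6.38 CPM in vehicle and 50.8 ± 3.81 CPM in indole mice. Of 14 genes for AKT substrates and the steps that follow them 4 were higher, 10 lower and 0 had an unadjusted p below 0.05 in edgeR (median −0.04), with 1, Gsk3b, once G14 was left out. The most abundant of them, the cyclic nucleotide phosphodiesterase Pde3b, had 68.4 ± 2.70 and 68.4 ± 11.2 CPM. Of the receptor's relatives Igf2r had 40.5 ± 3.82 and 37.5 ± 5.75 CPM, Igf1r was at 1.41 ± 0.407 and 1.54 ± 0.616 CPM, and Insrr had 4 reads in all.

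Of 19 tested brakes on the pathway 8 were higher and 11 lower (median −0.01), and 1 had an unadjusted p below 0.05, where 3.81% of all genes did. The count was 2 without G5 (with Mapk8), G7 or G10 (with Ptprf) or G13 (with Trib3). The 1 called brake was Socs3, the cytokine-induced inhibitor that binds the receptor and its substrates, which had lowest, median and highest levels of 1.56, 3.84 and 11.5 CPM in vehicle and 0.917, 1.61 and 3.91 CPM in indole mice. All but 1 indole mouse lay below the vehicle median, at a low level for both groups. Socs3 fell by 1.25 on the log2 scale (SE 0.412; edgeR unadjusted p = 0.00837, adjusted p = 0.998; exact permutation p = 0.0251), and it lost its unadjusted call once the erythroid sum was a covariate. The most abundant brake, the receptor-type phosphatase Ptprf, had 175.7 ± 23.4 CPM in vehicle and 155.5 ± 19.0 CPM in indole mice (edgeR unadjusted p = 0.0766).

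Of 11 tested genes listed as raised by insulin in liver, 10 were nominally higher with indole and 1, Angptl8, lower. Their median log2 fold change was 0.20 against 0.00 over all genes, of which 51.3% were higher. The list was chosen with earlier results of these data known, so this count is a description and no test. The summed level of all 13 listed genes, of which Scd1 was the largest part, ran from 4114 to 13720 CPM in vehicle and from 4960 to 11640 CPM in indole mice. This sum did not differ beyond the spread between mice (two-sided exact permutation test p = 0.243). In edgeR 1 of the 11 had an unadjusted p below 0.05, where 3.81% of all genes did, with 2 without G5 (Me1 added) and 3 without G13 (Me1 and Elovl6 added). Thrsp, a lipogenic protein induced by insulin and carbohydrate, had lowest, median and highest levels of 726.8, 965.5 and 1383 CPM in vehicle and 971.0, 1387 and 1728 CPM in indole mice, and all 7 indole mice exceeded the vehicle median. Thrsp rose by 0.45 on the log2 scale (SE 0.153; edgeR unadjusted p = 0.00868, adjusted p = 0.998; exact permutation p = 0.0221). Scd1, the most abundant, had 3807 ± 2492 and 4448 ± 1500 CPM, and its spread was larger than the difference. The summed level was thus weighted towards this variable gene. The genes that insulin lowers were split, with 5 of 10 higher, 5 lower and a median of −0.01. Of these 10, 0 had an unadjusted p below 0.05 in edgeR, where 3.81% of all genes did. Pdk4, which restrains glucose oxidation, had 3.72 ± 1.37 CPM in vehicle and 4.89 ± 1.41 CPM in indole mice and passed that criterion in limma and in edgeR without G11 or without G12, and both Pdk4 and G6pc passed it without G8 and G11 together. Apoc3, the most abundant of these, had 2246 ± 324.3 and 2478 ± 380.0 CPM, and Pck1 had 2095 ± 466.1 and 2097 ± 637.6 CPM.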

How the data were processed

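Read counts per gene were deposited by the authors, who per the labels and the study's methods aligned reads with HISAT2 to GRCm38 (Ensembl annotation), kept uniquely mapped reads and tested with DESeq2; the versions of these 2 tools are not given in the sources used here. The deposited counts were raw, and all 14 libraries were used, grouped by the treatment in the labels. Genes were filtered with filterByExpr and tested with edgeR 4.0.16 (TMM, robust quasi-likelihood) in R 4.3.3. Alternatives were DESeq2 1.42.0, limma 3.58.1 (voom with quality weights), other scalings, no filter, no robust fit, each mouse left out in turn and G8 and G11 left out together. The erythroid covariate, the long-gene index and the ratios were added after the data were seen. Intervals, SEs and fold changes came from edgeR, and exact permutation tests ran over the 3432 divisions of 14 mice into 2 groups of 7. CPM values used TMM library sizes, and log2 CPM a prior count of 2. Correlations used 100000 permutations of mice within groups (exact within 1 group) in NumPy 2.4.6, with Benjamini–Hochberg adjustment over 36, 6 or 9 pairs. Lengths were those of the deposited table. Promoters were RefSeq windows. The edgeR script was tested on simulated data.

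The members and lists were chosen with earlier results of these data known. All members were named, with each list's most abundant gene and any with an unadjusted p below 0.05, the partners set against Irs2 (1 of them is not reported here), and the 5 genes most like Irs2 and Insr. Pnpla3 and 6 other listed pathway genes had too few reads to be tested. The labels gave no batch, cage or pairing. Of 42 pairs of libraries in the same group none were as alike as sampling noise (lowest chi-square per degree of freedom 17.1). Genes overlapping a member had at most 20 reads in any mouse, and the strand setting of the counting is not given in the sources used here.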

Additional observations from a re-analysis of the deposited data

How the results depend on the processing

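No member reached an adjusted p below 0.05 under any alternative run (lowest 0.718, Insr), and no gene did (lowest 0.0718, in DESeq2). The other scalings moved the median of all genes by at most 0.02 on the log2 scale. Without the filter on low counts 1336 of 22535 genes had an unadjusted p below 0.05, against 482 of 12653; more genes were tested. The count of members with an unadjusted p below 0.05 ran from 0 to 1 as single mice were left out, the 1 being Insr without G12. With single mice left out, the log2 fold change of Irs2 ran from −0.12 to 0.10, that of Irs1 from −0.066 to 0.075 and that of Akt2 from −0.036 to 0.013, so no direction can be given for these. The other members kept their sign, Insr from −0.17 to −0.086, Pik3ca from −0.22 to −0.061, Pik3r1 from −0.11 to −0.022, Pik3cb from 0.050 to 0.14, Akt1 from −0.061 to −0.011 and Grb14 from −0.10 to −0.028. With the erythroid sum as covariate Irs2 went to −0.15 and Pik3r1 to 0.017. Without G8 and G11 the log2 difference in the Irs2 to Irs1 ratio was −0.050. Among pairs of members 1 correlation (Akt1 with Grb14) had an adjusted p below 0.05 by ranks and 1 without G8 and G11, and among the Irs2 partners 1 (G6pc) did without G8 and G11. The r of Irs2 with Pck1 was −0.029 within indole mice, −0.0073 without the 2 farthest mice and −0.017 without G8 and G11, and that with Ppargc1a was −0.36 without the 2 farthest mice. The cause of these shifts was not tested. No paired analysis was possible because the labels number mice and share no number between groups. With 7 mice a group the intervals allow changes of about 10% for Akt2 and up to 1.40-fold for Irs2.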

Other observations

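Within vehicle mice Irs1 and Akt1 had r = 0.87 (rho = 0.86, 7 mice, exact permutation p = 0.0139 and 0.0238, the first adjusted to 0.167 over 36 pairs), and within indole mice r = −0.68 (rho = −0.57, 7 mice, exact permutation p = 0.0873 and 0.200, the first adjusted to 0.497). Irs1 and Irs2 had r = 0.38 (rho = 0.29, exact permutation p = 0.388 and 0.556, the first adjusted to 0.839) in vehicle and r = −0.84 (rho = −0.89, exact permutation p = 0.0240 and 0.0123, the first adjusted to 0.288) in indole mice. Both pairs were picked out of 36 after their values were seen, none of these values passed adjustment, and the difference between the groups was not tested.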
